A study of Homo sapiens with 12 samples.

Results

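The count table of this series holds 10246 rows with the biotype processed pseudogene among its 57704 genes, and 216 of them, each with 300 or more counts summed over 12 libraries, are described here. The members were chosen by that raw count sum over all libraries, a rule set with earlier results of these data known. It does not use the treatment labels, but the sum is not scaled for depth. The members had a mean of 96426 counts in scrambled and 49939 in SUPT4H1 libraries, so the scrambled libraries weighed more in the choice. The part of this in the number of falls was not tested. A further 3722 processed pseudogene rows had between 1 and 299 counts, and 6308 had none. The members nearest the threshold were AC091133.5 with 300 counts, RPL17P50 with 308 and RPL21P4 with 309, while AL137784.1 with 299, RPS7P11 with 297 and AL162578.1 with 296 lay just outside it.

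The libraries are QuantSeq 3′ libraries, which read the 3′ ends of polyadenylated RNA, from HEK293, an established human embryonic kidney line. All the cells, controls included, stably carried an intron-DARP-EGFP reporter, and nothing in the sources says whether the reporter line is 1 clone. A total of 6 wells received a pool of siRNAs against SUPT4H1 and 6 received scrambled siRNAs, all at 100 nM and all harvested after 72 hours, as separate transfections of 1 culture, so the spread between libraries is that between transfections. Each lysate of 1000000 cells received ERCC RNA standards, mix 2 with SUPT4H1 siRNA and mix 1 with scrambled siRNA. Endogenous counts ran from 6591194 to 20269171 per library, and SUPT4H1 replicate 6, the shallowest, stood at 38.4 on the second principal component against −19.5 to −3.92 for the other SUPT4H1 libraries. SUPT4H1, which encodes a subunit of the elongation factor DSIF, had between 175 and 198 CPM (TMM-scaled counts relative to a library of 1000000) with scrambled siRNA and between 17.7 and 23.2 CPM with its own siRNA, which is −3.14 ± 0.08 (SE) as a log2 fold change (adjusted p = 3.62e-17 by edgeR). All 11 markers of HEK293 cells were at 1 CPM or more in the mean of a group, as were 3 of 5 fibroblast markers (COL1A1, COL3A1 and PDGFRA), 2 of 3 markers of mature neurons (SYT1 and SNAP25) and 1 of 5 leukocyte markers (CD68). None of 4 endothelial and none of 3 hepatocyte markers reached that level. The fibroblast markers summed to 10.2 CPM in the scrambled and 9.95 CPM in the SUPT4H1 group, those of mature neurons to 33.4 and 25.2 CPM and those of leukocytes to 1.45 and 2.16 CPM, with the leukocyte gene PTPRC at 0 in both; their part in the results was not tested.

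A processed pseudogene is a copy of an mRNA that was reverse-transcribed and inserted elsewhere in the genome, so it lacks the introns of its parent gene and often carries a remnant of the poly(A) tail. Genes for ribosomal proteins, which are transcribed at high levels in most cells, have left the most such copies in the human genome. Because a copy can be nearly identical to its parent, a short read from one can match the other, and the gene that receives the read then depends on how the alignment and counting treat matches to several places.

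The parent gene was taken from the symbol for 148 members, and all 148 were also the best match of the member among protein-coding transcripts. For 50 members named after a genomic clone, the parent was the best match at 90% identity or more over at least 70% of the member. Members whose symbol named no parent were not assigned one by sequence. They are among the 18 members that remained without a parent. A ribosomal protein gene was the parent of 159 members, 89 copied from large-subunit and 70 from small-subunit genes. The other members with a parent came from genes for translation factors (10), chaperones and peptidyl-prolyl isomerases (6), RNA-binding proteins (4), chromatin or nucleolar proteins (3), mitochondrial proteins (3), the proteasome (2), the cytoskeleton (1), metabolism (1) and other functions (9). Identity to the parent ranged from 81.5% to 100%, with a median of 96.5% over 198 pairs.

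Copies differ from their parents to unlike degrees, and 6 pairs are shown as examples. The stretches lie in the coding region and were picked to hold a difference where the pair has one, and 60 bases is a display length. They therefore do not show how often a read from a 3′ end can tell a copy from its parent. Each sequence runs 5′ to 3′ along the transcript, comes from GENCODE release 29 (GRCh38), and is the stretch of 60 aligned bases of the parent's coding region nearest the 3′ end that holds a difference away from its edges, or simply the one nearest the 3′ end where the pair has none. Capitals mark the bases that differ, and the substitutions are written as parent base, position from 1 at the 5′ end of the stretch, and pseudogene base. RPL17P18, the member with the most counts, is shown at chr3:197850403-197850462 on the minus strand, and its stretch crosses an exon junction of RPL17 on chromosome 18 and differs from it by T50C.
RPL17P18: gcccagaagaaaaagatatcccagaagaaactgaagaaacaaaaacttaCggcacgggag
RPL17: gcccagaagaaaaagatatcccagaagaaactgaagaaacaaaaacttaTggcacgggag
RPL36AP37, at chr11:16974696-16974755 on the minus strand, is identical to RPL36A on chromosome X over the whole of its annotated 321 bases, so 1 sequence stands for both.
RPL36AP37: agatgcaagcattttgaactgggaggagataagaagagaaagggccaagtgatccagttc
RPL13AP5, at chr10:96750555-96750614 on the plus strand, has 3 mismatches to RPL13A over 612 bases, of which A6G falls in the stretch.
RPL13AP5: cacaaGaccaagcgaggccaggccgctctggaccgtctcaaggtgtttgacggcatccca
RPL13A: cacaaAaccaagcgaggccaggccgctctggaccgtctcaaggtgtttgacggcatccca
AC007182.2, at chr14:75595808-75595867 on the minus strand, is the copy of a parent with the largest fall and differs from RPS24 by A5G and C53T.
AC007182.2: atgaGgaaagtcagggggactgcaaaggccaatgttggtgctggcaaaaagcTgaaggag
RPS24: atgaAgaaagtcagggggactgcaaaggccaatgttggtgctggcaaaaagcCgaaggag
AP001024.1, at chr11:107908649-107908708 on the plus strand, is the copy of a parent with the largest called rise and differs from RPLP2 by T29C.
AP001024.1: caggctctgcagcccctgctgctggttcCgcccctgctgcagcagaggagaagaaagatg
RPLP2: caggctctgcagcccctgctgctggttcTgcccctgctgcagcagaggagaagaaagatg
RPL26P37 lies on the Y chromosome, at chrY:5793303-5793362 on the minus strand, and differs from RPL26 by C1T, G16C and C42A.
RPL26P37: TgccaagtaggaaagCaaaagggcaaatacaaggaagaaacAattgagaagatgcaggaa
RPL26: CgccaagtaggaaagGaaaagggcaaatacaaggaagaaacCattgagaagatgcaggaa

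Over all members, the median share of 50-base windows that also occur in another transcript was 20.1%. No window was shared in 24 members, and every window was shared in 5: RPL36AP37, RPL21P16, RPS28P7, RPL39P3 and AC079150.2. The counts of the shared stretches can therefore belong to another gene, and the values of each member are those of the reads assigned to its row. How multiply matching reads were treated is not given in the sources used here.

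The 216 rows together held 878190 counts, and 55.1% of them lay in 10 members. RPL17P18 (ENSG00000234742, chr3:197850400-197850954) alone held 161657, or 18.4%. The next were AL122020.1 with 49490 counts (a copy of RPS18), RPS13P2 with 46286, AL031727.1 with 42911 (a copy of RPS14), RPS15P4 with 38313, RPL36AP37 with 36345, RPL13P12 with 35719, AC024293.1 with 29348 (a copy of RPS10), RPL26P6 with 24495 and RPL3P4 with 18915. All 10 have a ribosomal protein parent, and they differ widely in how distinct they are, from 6.65% of windows shared in AL031727.1 to 100% in RPL36AP37.

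The median member held 0.611% of the count sum of its parent gene, and the lowest share was 0.0267%. The order was the other way round in 5 members. RPL17P18 held 433 times the 373 counts assigned to RPL17, and 2 further copies of RPL17, RPL17P6 with 5888 counts and AC025459.1 with 1082, also lay above it. RPL17 shares exons on its own strand with the readthrough gene RPL17-C18orf32 and with the small RNA genes SNORD58A, SNORD58B and SNORD58C, each of which had 0 counts. RPL36AP37 held 10.99 times the 3307 counts of RPL36A, whose overlapping readthrough gene RPL36A-HNRNPH2 had 0 counts. AC008038.1, a copy of the elongation factor gene EEF1G, had 572 counts while EEF1G was listed at 0; EEF1G shares exons with AP002990.1. The part of these overlaps and of sequence identity in the assignment of counts was not tested. Across the 198 pairs, identity to the parent and the log2 share of the parent's counts had a Spearman rho of 0.41, a description across genes that share libraries and, in part, parents.

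**Figure D1:**
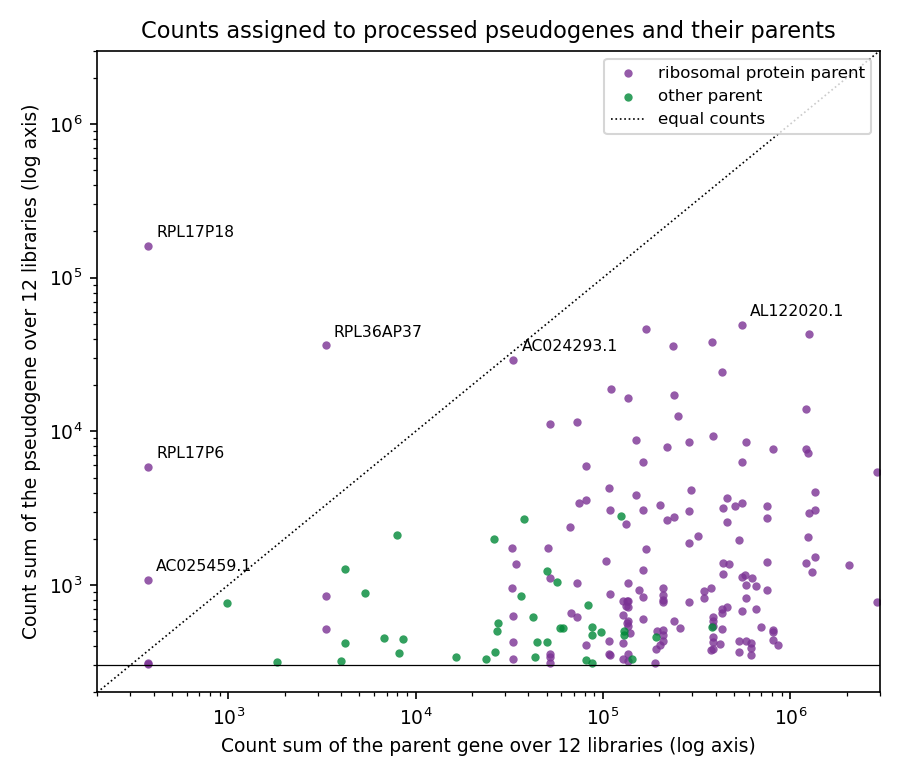
Count sum over 12 libraries of each processed pseudogene (vertical log axis) against that of its parent gene (horizontal log axis), for pairs with a parent count above 0; the horizontal line is the threshold of 300 and the dotted line marks equal counts. Most points lie far below the line of equal counts, and RPL17P18, RPL17P6, AC025459.1 and RPL36AP37 lie above it.

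Counts were also assigned to RPL26P37 on the Y chromosome. HEK293 cells carry no Y chromosome, yet this row, which shares 43.2% of its windows with other transcripts, had 656 counts. The 515 rows on that chromosome had 757 counts in all, 745 of them in processed pseudogenes and 4 in the 47 protein-coding rows. RPL26P37 had from 3.24 to 5.64 CPM with scrambled siRNA and from 3.13 to 7.07 CPM with SUPT4H1 siRNA, and the groups overlapped (log2 fold change 0.08 ± 0.21, adjusted p = 0.801).

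Relative to all endogenous counts, more members fell than rose with SUPT4H1 siRNA. All 216 passed the filter on low counts, and by edgeR's quasi-likelihood test at an adjusted p under 0.05, 60 fell (27.8%), 7 rose (3.24%) and 149 passed in neither direction. Over all 13820 genes tested, 19.8% fell and 20.3% rose. The median log2 fold change of the members was −0.23, with 154 of 216 below 0, against 0.0025 over all genes. The libraries of the groups did not overlap in 14 members that were lower and 5 that were higher with SUPT4H1 siRNA. Both are smaller shares of the 216 than the 9.91% and 10.3% over all genes, so by this measure falls were not more frequent among members. Most members lay within 0.5 of 0 (158 of 216), and a called change of 2-fold or more was seen in 4 that fell (LRRC37A13P, AC007182.2, RPL17P39 and RPL6P19) and 2 that rose (ZNF204P and AC025449.1). Without SUPT4H1 replicate 6, 77 members passed in place of 67, and 12 of them rose in place of 7, so falls increased as well. The RNA integrity number ran from 9.9 to 10 in the scrambled and from 9.6 to 10 in the SUPT4H1 group, and with it as a covariate 43 members fell and 7 rose. Of the members described below, AL031727.1, AC025459.1, AC004890.1, RPS3AP20, NDUFB4P12 and ST13P15 no longer passed in that fit, nor did the parents RPL13A, RPS13 and COX20.

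The falls lay mostly among copies of ribosomal protein genes. Of 159 such members, 54 fell (34.0%) and 2 rose (1.26%), with a median of −0.32. Of the 57 others, 6 fell (10.5%) and 5 rose (8.77%), with a median of −0.02. Over all genes, 19.8% fell and 20.3% rose. The others include the 18 members without an assigned parent, some of which have a ribosomal protein gene as best match. AC008026.2, which rose and best matches RPLP2, is among them. Copies of large-subunit genes (32 fell, 2 rose, median −0.32) and of small-subunit genes (22 fell, none rose, median −0.32) had like values, and no copy of a small-subunit gene rose at an unadjusted p under 0.05, with DESeq2 or with limma-voom either. The members' share of all endogenous counts was 0.610% ± 0.043 (SD, n = 6) with scrambled siRNA and 0.538% ± 0.033 (SD, n = 6) with SUPT4H1 siRNA. The lowest scrambled library, at 0.551%, lay below the highest SUPT4H1 library, at 0.572%. The parents of the 159 ribosomal members took 22.8% ± 1.0 (SD, n = 6) of the counts with scrambled siRNA. With SUPT4H1 siRNA these parents took 19.3% ± 1.7 (SD, n = 6). Those 159 members held a mean of 0.571% in scrambled and 0.499% in SUPT4H1 libraries. Among the parents of all families, 107 distinct genes were tested, of which 53 fell and 8 rose, with a median of −0.26, beside the same 19.8% and 20.3%.

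**Figure D2:**
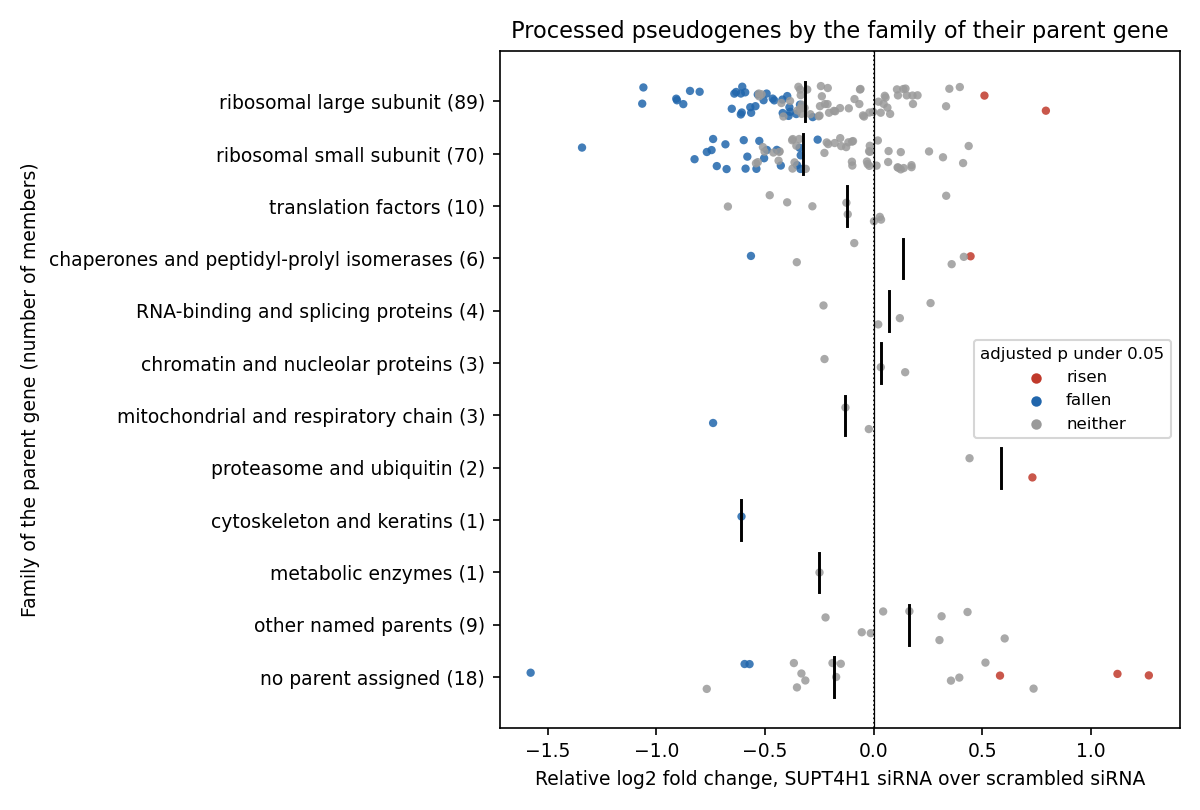
Relative log2 fold change of each of the 216 members (horizontal axis, SUPT4H1 siRNA over scrambled siRNA), by the family of its parent gene (vertical axis, with the number of members); colours give the edgeR call, black bars the median of a family and the dotted line the median of all genes. The medians of both ribosomal families lie near −0.32, and 54 of the 60 members that fell are in them.

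RPL36AP37 (ENSG00000244398, chr11:16974693-16975013, in an intron of PLEKHA7 on the same strand) was among the clearest falls of a well-counted member. Its lowest, median and highest levels were 233, 272 and 318 CPM with scrambled siRNA and 168, 186 and 211 CPM with SUPT4H1 siRNA. Every SUPT4H1 library lay below every scrambled library, and the log2 fold change was −0.53 ± 0.08 (adjusted p = 3.36e-05). RPL36A, which encodes the identical sequence, had a median of 22.1 CPM in scrambled and 19.7 CPM in SUPT4H1 libraries, and its change of −0.11 ± 0.12 did not pass (adjusted p = 0.494). The log2 ratio of the counts of the copy to those of the gene ran from 3.41 to 3.76 in scrambled libraries and from 2.74 to 3.396 in SUPT4H1 libraries, so it did not overlap either. PLEKHA7, the host gene, fell by 0.43 on the log2 scale (SE 0.15, adjusted p = 0.0218). The other copies of RPL36A, AC004890.1 and RPL36AP8, fell by 0.42 and 0.56. AC004890.1 lost its call in 7 and RPL36AP8 in 3 of the 12 fits that each left out 1 library.

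RPL17 and its 5 copies lay below 0, and RPL17P6, AC025459.1 and RPL17P39 passed. RPL17P18 had 984, 1109 and 1448 CPM (lowest, median and highest) with scrambled siRNA and 804, 1005 and 1082 CPM with SUPT4H1 siRNA. The groups overlapped, and its log2 fold change of −0.22 ± 0.10 did not pass (adjusted p = 0.0724); without SUPT4H1 replicate 6 it was −0.28 and passed (adjusted p = 0.0170). It also passed without scrambled replicate 6 (adjusted p = 0.0457), with upper-quartile factors (adjusted p = 0.0468) and with no filter beyond a count above 0 (adjusted p = 0.0438). RPL17P39 fell by 1.06 (SE 0.31, adjusted p = 0.00887) from few counts, between 1.62 and 3.43 CPM in scrambled and between 0.289 and 1.74 CPM in SUPT4H1 libraries. Without scrambled replicate 2 or SUPT4H1 replicate 2, AC025459.1 no longer passed.

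Other groups of copies of 1 gene went different ways. All 3 copies of RPS3A fell, and RPS3AP47 (chr15:43115702-43116493) had 34.0, 46.0 and 56.6 CPM with scrambled siRNA against 14.0, 26.7 and 33.4 CPM with SUPT4H1 siRNA. Its groups did not overlap, and its log2 fold change of −0.82 ± 0.16 (adjusted p = 7.32e-04) stood beside −0.83 ± 0.11 for RPS3A. RPS3AP20 lost its call without scrambled replicate 3 or SUPT4H1 replicate 5. Of the 8 copies of RPS2, 4 fell and 7 were below 0, RPS2P32 being the one above (0.41 ± 0.23, adjusted p = 0.166). Of the 5 copies of RPL23A, 3 fell, and RPL23AP74 was lower in all 6 SUPT4H1 libraries than in any scrambled library (−0.91 ± 0.18). RPL23AP65 fell by 0.80. Of 5 copies of RPL24, 2 fell, among them RPL24P2 (−0.90 ± 0.27), and of 4 copies of RPS18, 3 fell.

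None of the 7 copies of RPS20 passed with edgeR, DESeq2 or limma-voom (1 was lower at an unadjusted p under 0.05), with a median of 0.07 and a range from −0.37 to 0.14, and RPS20 itself was at −0.14 ± 0.08 (adjusted p = 0.174). The 4 copies of RPS12 were all above 0 and none passed, with 0 at an unadjusted p under 0.05 and 0 by DESeq2 or limma-voom, from 0.01 for RPS12P4 to 0.44 for RPS12P16. RPS12 itself rose by 0.20 (SE 0.08, adjusted p = 0.0352). The 4 copies of RPS10 were all below 0 and likewise none passed by any of these 3 tools, with 0 at an unadjusted p under 0.05. The members from 1 parent share that parent's sequence and are not independent of each other.

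AC007182.2 (ENSG00000242951, chr14:75595805-75596206, opposite an intron of FLVCR2) was the copy of a known parent that fell furthest. It had 8.91, 12.1 and 18.1 CPM with scrambled siRNA and 3.16, 4.86 and 8.004 CPM with SUPT4H1 siRNA. All SUPT4H1 libraries lay below all scrambled ones, and the log2 fold change was −1.34 ± 0.19 (adjusted p = 1.29e-05). RPS24, its parent, fell by 0.34 (SE 0.08, adjusted p = 0.00164). RPL6P19 fell by 1.06 (SE 0.26), RPLP0P9 by 0.84 (SE 0.19) and their parents RPL6 and RPLP0 by 0.43 and 0.44.

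RPL22P1 (chr3:169483671-169484080, in an intron of MECOM on the same strand) fell while its parent did not. It had 4.15, 5.50 and 6.21 CPM with scrambled siRNA and 2.29, 2.56 and 5.34 CPM with SUPT4H1 siRNA. The groups overlapped through SUPT4H1 replicate 6, at 5.34 CPM, and the log2 fold change was −0.88 ± 0.20 (adjusted p = 0.00179). RPL22, whose product is a large-subunit protein, was at 0.08 ± 0.10 (adjusted p = 0.568), and MECOM at −0.19 ± 0.13 (adjusted p = 0.244). The log2 ratio of the counts of RPL22P1 to those of RPL22 was between −6.63 and −6.01 in scrambled libraries and between −7.58 and −6.79 in SUPT4H1 libraries, with no overlap.

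Among the members with most counts, AL122020.1 fell by 0.49 (SE 0.10, adjusted p = 8.11e-04), from a median of 372 to one of 260 CPM with overlapping groups. RPS15P4 fell by 0.34 (SE 0.07, adjusted p = 0.00125) and its groups did not overlap, with scrambled libraries between 232 and 299 CPM and SUPT4H1 libraries between 201 and 230 CPM. RPL13P12 fell by 0.28 (SE 0.09, adjusted p = 0.0122). AL031727.1, in introns of MINOS1 and NBL1, fell by 0.26 (SE 0.10, adjusted p = 0.0364), and this call was lost on leaving out any of scrambled replicates 1 and 3 and SUPT4H1 replicates 1, 2, 4 and 5. NBL1 fell by 0.75 (SE 0.16, adjusted p = 8.56e-04), while MINOS1 (0.10 ± 0.13) and the parent RPS14 (−0.08 ± 0.11) did not pass. RPS13P2 (−0.02 ± 0.08), RPL26P6 (0.06 ± 0.09) and RPL3P4 (−0.02 ± 0.08) did not pass, while RPS13 and RPL26 fell by 0.32 and 0.41 and RPL3 was at −0.05. The RPS13 call was lost without scrambled replicate 6 or SUPT4H1 replicate 4. For RPL26P6 the log2 ratio to the counts of RPL26 was higher in every SUPT4H1 library (−4.07 to −3.34) than in any scrambled library (−4.55 to −4.07).

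Of the 7 members that rose, the largest rises belonged to members without an assigned parent. ZNF204P (ENSG00000204789, chr6:27357825-27360221, overlapping no other gene), by its name a zinc finger pseudogene, had 4.51, 6.30 and 7.90 CPM with scrambled siRNA and 13.1, 14.2 and 18.7 CPM with SUPT4H1 siRNA. Every SUPT4H1 library was above every scrambled one (log2 fold change 1.26 ± 0.14, adjusted p = 7.81e-07). AC025449.1 (chr5:37286449-37286977), whose best match was the chromatin gene CBX3 at 78.4% identity, had 3.41, 4.14 and 6.62 CPM with scrambled siRNA and 7.13, 9.60 and 11.2 CPM with SUPT4H1 siRNA. It also did not overlap between the groups (1.12 ± 0.17, adjusted p = 1.93e-05). Neither shared a 50-base window with another transcript.

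Of the members with a ribosomal parent, AP001024.1 and RPL13AP5 rose. AP001024.1 (ENSG00000240652, chr11:107908420-107908764) is a copy of RPLP2, which encodes a ribosomal stalk protein, and lies opposite an exon of SLC35F2. It had 34.4, 45.6 and 50.5 CPM with scrambled siRNA and 46.6, 81.6 and 92.8 CPM with SUPT4H1 siRNA. SUPT4H1 replicate 6, at 46.6 CPM, was the one library within the range of the scrambled group (log2 fold change 0.79 ± 0.13, adjusted p = 7.17e-05). RPLP2 was at 0.21 ± 0.10 (adjusted p = 0.109), but without SUPT4H1 replicate 6 it rose by 0.26 (adjusted p = 0.00752). SLC35F2, whose reads cannot be told from those of AP001024.1 unless strand was used in counting, rose by 0.50 (SE 0.10, adjusted p = 5.83e-04).

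RPL13AP5 (ENSG00000236552, chr10:96750288-96750899, overlapping no other gene) rose while RPL13A fell. The copy had 37.1, 46.5 and 64.5 CPM with scrambled siRNA and 59.998, 69.4 and 80.8 CPM with SUPT4H1 siRNA. The groups overlapped, and the log2 fold change was 0.51 ± 0.13 (adjusted p = 0.00388). RPL13A, which encodes a large-subunit protein also known for a role in translational control, had a median of 2120 CPM in scrambled and 1783 CPM in SUPT4H1 libraries and fell by 0.34 (SE 0.11, adjusted p = 0.0159). With the RNA integrity number as a covariate the fall of RPL13A was no longer called (−0.32, adjusted p = 0.0503), while the rise of RPL13AP5 still was. The other copies of RPL13A were also above 0 but did not pass: RPL13AP25 at 0.40 ± 0.17, RPL13AP20 at 0.15 ± 0.16 and RPL13AP22 at 0.02 ± 0.16.

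The remaining members that rose were PSME2P6 (0.73 ± 0.22, adjusted p = 0.0111), a copy of a proteasome activator gene, AC008026.2 (0.58 ± 0.17, adjusted p = 0.0115), whose best match is RPLP2 at 88.8% identity, and PIN4P1 (0.45 ± 0.13, adjusted p = 0.0106), a copy of a peptidyl-prolyl isomerase gene. In these 3 all SUPT4H1 libraries were above all scrambled ones, at levels between 1.17 and 12.7 CPM. The margin was very small in PSME2P6 (highest scrambled 2.06, lowest SUPT4H1 2.08 CPM) and AC008026.2 (5.81 and 5.82 CPM). By edgeR, PSME2 was at 0.22 ± 0.09 (adjusted p = 0.0633), although it passed with DESeq2 (adjusted p = 0.0357), with limma-voom (adjusted p = 0.0471) and without scrambled replicate 4 or SUPT4H1 replicate 6. PIN4 was at 0.08 ± 0.08 (adjusted p = 0.423).

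**Figure D3:**
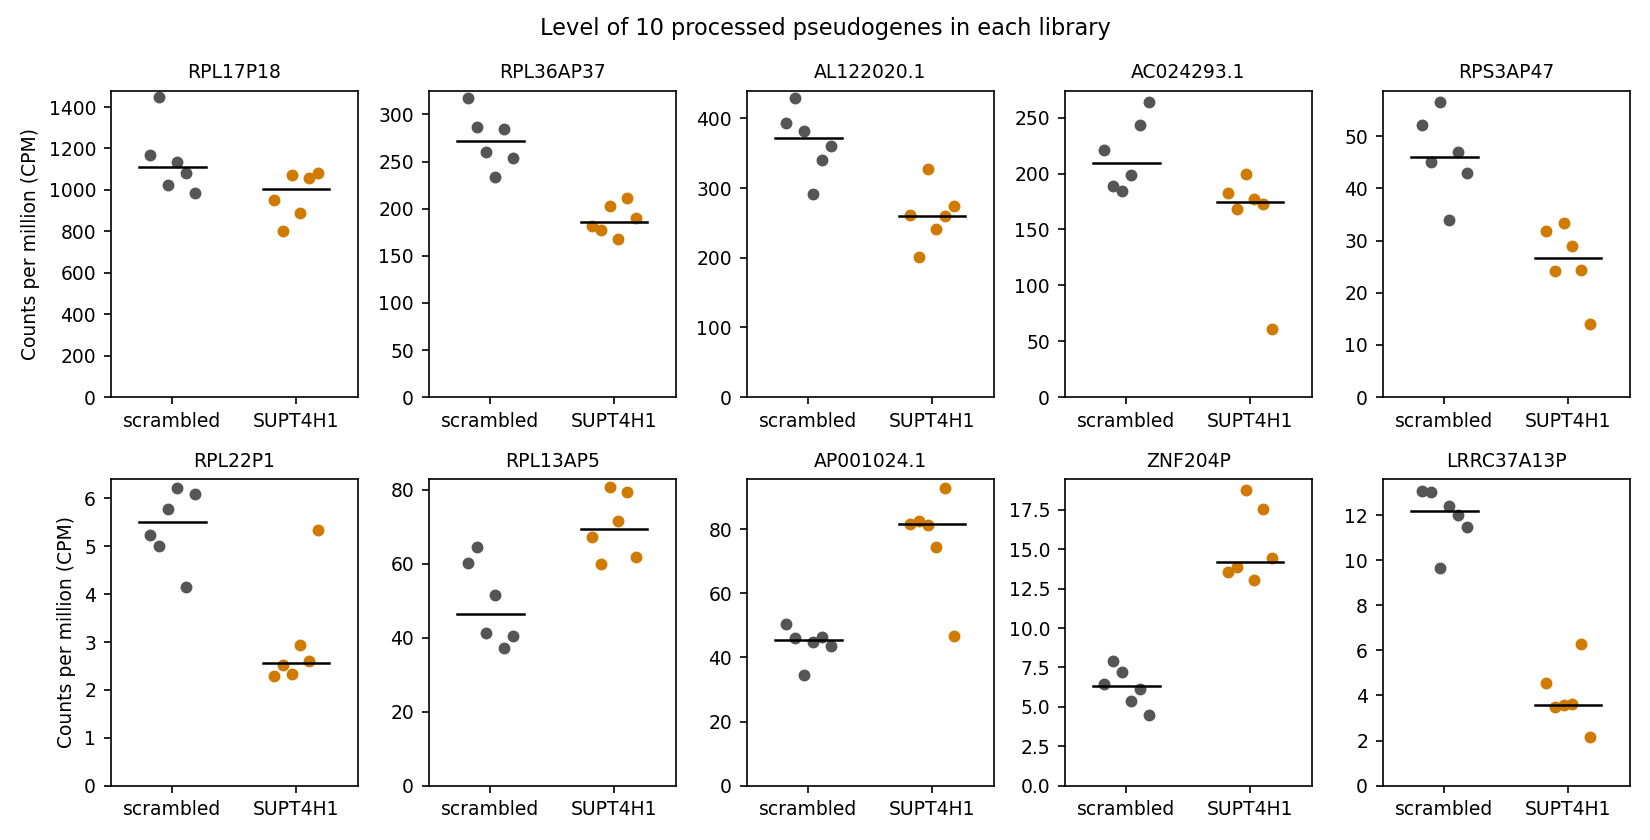
Level in CPM (vertical axis, from 0, one scale per gene) of 10 members in each of the 6 scrambled and 6 SUPT4H1 libraries (points, in replicate order from left to right), with the median as a bar. RPL36AP37, RPS3AP47, ZNF204P and LRRC37A13P do not overlap between the groups. In AC024293.1, RPL22P1 and AP001024.1 SUPT4H1 replicate 6, the rightmost point, stands away from the rest of its group.

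Members and their parents were compared over the 197 pairs in which both were tested. The sign of the log2 fold change was the same in 148 pairs, and Pearson's r was 0.52 and Spearman's rho 0.52, given as a description because the pairs share libraries, parents and in part reads. Of 57 members that fell and have a tested parent, the parent also fell in 44, passed in neither direction in 12 and rose in 1. The last was ST13P15 (−0.56 ± 0.20, adjusted p = 0.0305), a copy of the co-chaperone gene ST13, which rose by 0.34 (SE 0.07, adjusted p = 5.41e-04). Leaving out 1 library ended the call of ST13P15 in 7 of 12 fits, among them those without scrambled replicate 1, 5 or 6. In 66 pairs the parent fell and the member did not pass. The median of the difference, member minus parent, was 0.09.

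**Figure D4:**
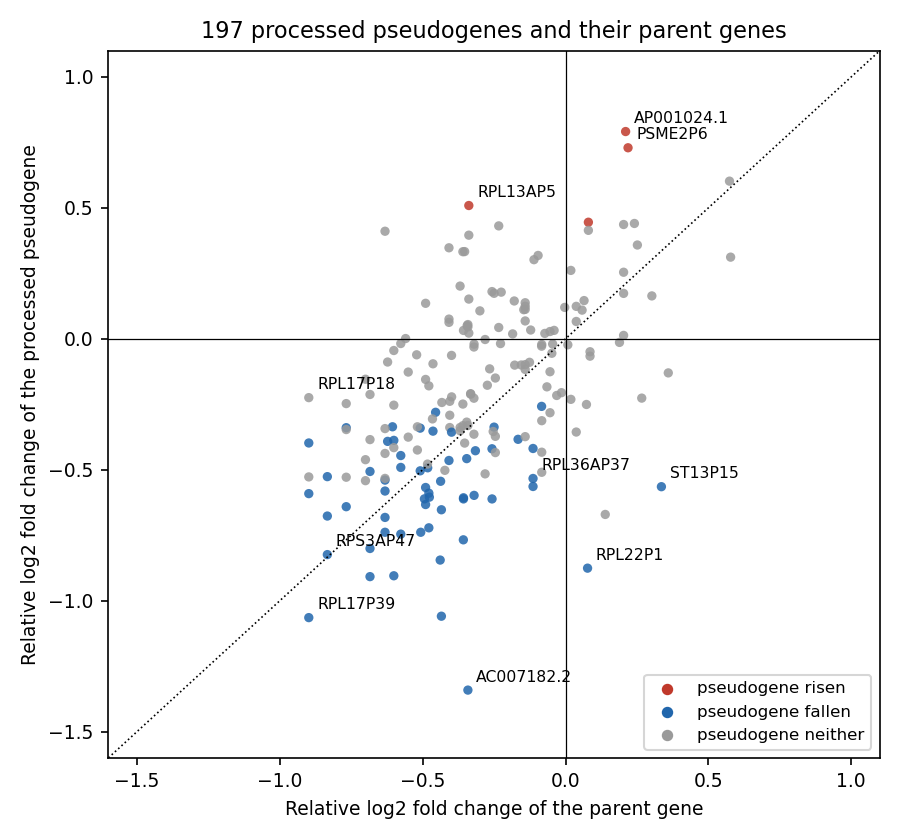
Relative log2 fold change of 197 processed pseudogenes (vertical axis) against that of their parent genes (horizontal axis); colours give the edgeR call of the pseudogene and the dotted line marks equal values. Points gather where both values are below 0, RPL13AP5 lies above 0 with a parent below 0, and ST13P15 lies below 0 with a parent above 0.

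Counts that could be split between a gene and its copies were also summed into 1 row for each of the 108 families. Of these sums, 57 fell and 8 rose, beside 19.9% and 20.4% of the 13623 rows of that table, and their median was −0.26. By edgeR, the call of the sum differed from that of the parent alone in 7 families: RPS10, RPL36A, TMSB4X and RPL9 fell as sums only, PSME2 rose as a sum only, COX20 rose as a gene only, and EEF1G could be tested as a sum only, where it did not pass. RPL9 lay at the threshold both alone (−0.33, edgeR adjusted p = 0.0507) and as a sum (−0.33, edgeR adjusted p = 0.0490). Without SUPT4H1 replicate 6, COX20 alone was at 0.17 and no longer passed (adjusted p = 0.0575), and TMSB4X alone passed (adjusted p = 0.0384). TMSB4X alone also passed without scrambled replicate 5 (adjusted p = 0.0082), with upper-quartile factors and with no filter. RPL36A with its copies was at −0.50 ± 0.08, and its copies made up 91.9% of the family's counts. RPL17 with its copies, which made up 99.8%, was at −0.24 ± 0.10 and did not pass (adjusted p = 0.0583). The number of sums that rose was 5 without scrambled replicate 2, 3 or 5 or SUPT4H1 replicate 4, and 4 without SUPT4H1 replicate 3 or 5.

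Outside the ribosomal families, 6 members fell (10.5%) and 5 rose (8.77%), beside 19.8% and 20.3% over all genes. LRRC37A13P (ENSG00000257101, chr11:113791466-113791752, overlapping no other gene), named after the LRRC37 family and without an assigned parent, fell furthest of all members. It had 9.66, 12.2 and 13.1 CPM with scrambled siRNA and 2.16, 3.58 and 6.29 CPM with SUPT4H1 siRNA. Its groups did not overlap, and its log2 fold change was −1.58 ± 0.18 (adjusted p = 5.76e-07). TMSB4XP4, a copy of the gene for the actin-binding peptide thymosin beta 4 within an intron of SLC27A4 on the same strand, fell by 0.61 (SE 0.15, adjusted p = 0.00225), while SLC27A4 rose by 0.72 (SE 0.14, adjusted p = 3.79e-04). NDUFB4P12, a copy of a complex I subunit gene, fell by 0.74 (SE 0.23, adjusted p = 0.0128) beside a fall of 0.51 for NDUFB4. The call of NDUFB4P12 was lost with the RNA integrity number as a covariate (−0.65, adjusted p = 0.0616).

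None of the 10 copies of translation factor genes passed with edgeR, DESeq2 or limma-voom, or at an unadjusted p under 0.05, with a range from −0.67 to 0.33. By the same 3 tools there was no call among the 4 copies of genes for RNA-binding proteins, such as HNRNPA3P6 (0.26 ± 0.11, adjusted p = 0.0680) and SNRPGP2 (−0.23 ± 0.19), where 1 member was higher at an unadjusted p under 0.05. The same held, with 0 at an unadjusted p under 0.05, for the 3 copies of chromatin and nucleolar genes, PTMAP10 (0.03 ± 0.29), MORF4L1P1 (−0.23 ± 0.71) and NPM1P27 (0.14 ± 0.58). HNRNPA3P6 rose without scrambled replicate 2 (adjusted p = 0.0345) or SUPT4H1 replicate 5 (adjusted p = 0.04999). Of the 6 copies of chaperone and isomerase genes, PIN4P1 rose and ST13P15 fell, and PPIAP22 (0.36 ± 0.25) and HSP90AA2P (−0.09 ± 0.19) did not pass. AC027309.2, a copy of TMA7, was at 0.60 ± 0.27 (adjusted p = 0.0830) beside a rise of 0.57 for TMA7 itself, and it passed without scrambled replicate 1 or SUPT4H1 replicate 1.

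By place in the genome, 95 members overlapped no other annotated gene, and 22 of them fell and 4 rose (median −0.18). Of 53 within an intron of another gene on the same strand, 14 fell and 2 rose (−0.21), and of 50 opposite an intron, 18 fell and none rose (−0.33), with 2 higher at an unadjusted p under 0.05. Of 12 opposite an exon, 5 fell and 1 rose. Of 6 that share an exon on the same strand, 1 fell, RPS18P9, which holds the small RNA gene RF00410. The 24 members with no shared 50-base window had 3 falls, 3 rises and a median of 0.05. The 147 with under 50% of windows shared had 38 falls, 3 rises and a median of −0.25, and the 45 with more had 19, 1 and −0.33. Of the 124 members with fewer than 1000 counts, 21 fell and 3 rose, and of the 47 with 3000 or more, 20 fell and 2 rose, so the share that passed was lower where counts were few. Over all genes tested, 19.8% fell and 20.3% rose. The share of members that fell was 23.2% with no overlap, 26.4% in a same-strand intron and 36.0% opposite an intron. Opposite an exon it was 41.7%, and in a same-strand exon 16.7%. It was 12.5% with no shared window, 25.9% with under 50% shared and 42.2% with more. With fewer than 1000 counts it was 16.9%, and with 3000 or more 42.6%. These splits were not tested against each other.

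Scaled by the 23 ERCC standards of subgroup B, which have the same nominal amount in both mixes, 162 of the 216 members fell and none rose by edgeR (0 also at an unadjusted p under 0.05), with a median log2 fold change of −1.06. Over all genes, 59.0% fell and 0.304% rose, and the median was −0.82. Of the copies of ribosomal protein genes 132 of 159 fell (median −1.12), and of the others 30 of 57 (median −0.83). RPL17P18 fell by 1.05 and RPL36AP37 by 1.32 on this scale. ZNF204P (0.49, adjusted p = 0.181), AC025449.1 (0.23, adjusted p = 0.539) and AP001024.1 (9.15e-05, adjusted p = 0.99977) did not pass, nor did RPL13AP5 (−0.32, adjusted p = 0.358). With the standards of subgroup C in place of B, 66 members fell, so the number of calls depended strongly on the standards. The share over all genes with subgroup C is not given here, and the 59.0% belongs to subgroup B. The stated number was 1000000 cells in every lysate. In bulk lysates, fewer cells than stated and less RNA per cell cannot be told apart, and the mix was confounded with the treatment.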

How the data were processed

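The authors deposited raw counts, whole numbers, for 12 libraries in a single table. The submitters' processing notes name FastQC 0.11.5, STAR, MultiQC, R 3.4.3 and the build GRCh38.p10. How reads were counted, with or without strand and with which treatment of multiple matches, was not stated, so near-identical, overlapping and antisense genes are uncertain. Members, families and lists were chosen with earlier results of these data known. Names follow a rule: the members with most counts, the largest called changes, the top members of each family, their parents and members of 1 parent. Only some of the members this takes are described.

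Positions and sequences came from GENCODE 29 (GRCh38), and parents of members named after a clone from BLAST 2.17.0. Endogenous counts were TMM-scaled, filtered by filterByExpr (13820 genes left) and tested with edgeR 4.0.16 (quasi-likelihood, robust, Benjamini-Hochberg threshold 0.05, SUPT4H1 siRNA against scrambled siRNA, 6 libraries each, R 4.3.3). Errors of log2 fold changes are standard errors. For spike-in scaling, libraries were divided by the summed counts of 23 ERCC standards, whose subgroups were written from general knowledge of the product. Alternatives were DESeq2 1.42.0, limma-voom (limma 3.58.1), RLE and upper-quartile factors, looser and stricter filters, ERCC subgroup C or all standards, a covariate of RNA integrity, a replicate block and leaving out each library. Libraries of a group differed by more than sampling noise (30 pairs, chi-square per degree of freedom 4.45 to 34.7). Tested on simulated data for the relative comparison (13676 genes), the fit called 65.7% of genes planted at 1.5-fold, 82.8% at 2-fold and 100% at 4-fold, with 9 false calls.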

Additional observations from a re-analysis of the deposited data

Results flagged for a closer look

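In the named members, 106 sets of 6 libraries were examined for a library whose gap to its neighbour takes up most of the range of its group, by Dixon's criterion at the 95% level. It was met in 9 sets, where chance gives about 1 in 20, or 5.3. In 6 of the 9 the library was SUPT4H1 replicate 6, which also stands apart on the second principal component.

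AC024293.1, the copy of RPS10 with most counts, was at 61.2 CPM in SUPT4H1 replicate 6 and between 168 and 199 CPM in the other 5 SUPT4H1 libraries. In that library RPS10 was at 248 CPM, the highest of its group. AC090114.1, whose best match is also RPS10 (87.2% identity), was at 14.9 CPM there and between 39.2 and 50.9 CPM in the others. Without that library AC024293.1 fell by 0.29 (adjusted p = 0.00783) and AC090114.1 by 0.23 (adjusted p = 0.0428), where neither passed with it (edgeR adjusted p = 0.157 and 0.193). AC091133.5 was at 0.866 CPM in SUPT4H1 replicate 6, below 1.73 to 2.17 CPM in the others.

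In the other direction, SUPT4H1 replicate 6 had 216 CPM of RPL26P6 (others 147 to 171), 5.34 CPM of RPL22P1 (others 2.29 to 2.93) and 7.21 CPM of NPM1P27 (others 0.695 to 2.71). EEF1DP1 was at 4.40 CPM in SUPT4H1 replicate 4 (others 2.73 to 3.32), AC025449.1 at 6.62 CPM in scrambled replicate 4 (others 3.41 to 4.47) and MORF4L1P1 at 9.03 CPM in scrambled replicate 2 (others 1.30 to 4.05).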

How the results depend on the processing

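DESeq2 and RLE factors called the same 67 members as the main test, and limma-voom called 66 of them and 1 other. With no filter 61 of the 67 were called and 6 others, and with the RNA integrity number as a covariate 50 (7 rose and 43 fell) and no others. Without SUPT4H1 replicate 6, 77 members were called, of which 12 rose. Leaving out each library gave 7 to 12 members that rose and 49 to 65 that fell, and all 7 rises and 40 of the 60 falls were called in all 12 of these fits. With a count sum of 1000 or more, 4 rose and 39 fell of 92 members; among members that overlap no other gene, 4 and 22 of 95; with a parent by symbol, 3 rose; with a change of 1.5-fold or more, 4 and 29. These limits leave fewer members to call. By spike-ins, 66 fell with subgroup C, for which the share over all genes is not given here. With subgroup B, leaving out each library gave 128 to 199 falls and 0 rises. Family sums that rose were 5 with upper-quartile factors, 4 with RNA integrity as a covariate and 4 to 8 on leaving out a library (48 to 60 fell); the cause was not tested. SUPT4H1 ran from −3.18 to −3.10. For single named genes, 1818 of the alternative values kept their side of the threshold, 24 came to pass it, 38 no longer passed and 0 changed direction.

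Replicate numbers do not pair the samples: correlations of same-numbered libraries ran from −0.32 to 0.06, and none matched its own number best. With the replicate block, 7 members rose and 48 fell, 5 family sums rose and 48 fell, and 179 members fell by spike-ins; NDUFB4P12 (adjusted p = 0.0566), AL031727.1 and RPS13 were among the calls lost. The median standard error of the log2 fold change was 0.22 in members with fewer than 1000 counts and 0.12 in those with 3000 or more.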
